A study of Mus musculus with 3 samples.

Results

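These data describe 10 genes of prostaglandin synthesis and reception in single cells of the mouse iridocorneal angle and the adjoining limbus. The genes were chosen by name, and all 10 were found among the 31053 genes measured. They comprised the cyclooxygenases *Ptgs1* and *Ptgs2*, the synthases *Ptgds*, *Ptges* and *Ptgis*, and the receptors *Ptgfr*, *Ptger1*, *Ptger2*, *Ptger3* and *Ptger4*. Together they held 1353260 of the 223812616 UMIs (unique molecular identifiers, which count captured transcripts) in the 26008 kept cells.

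Control replicates 1 and 2 came from *Angpt1* flox/flox mice. The single mutant library, *Angpt1*ΔNC, came from *Angpt1* flox/flox;Wnt1Cre+ mice, in which Wnt1-Cre removes *Angpt1* from the neural crest lineage. All were albino animals of mixed strain, obtained by crossing onto ICR mice and aged to 6 weeks, and each library pooled the eyes of a few mice. The libraries held 9076, 10160 and 6772 kept cells, given here and below in the order control replicate 1, control replicate 2 and *Angpt1*ΔNC, at medians of 6329.5, 6393.5 and 7444 UMIs. In cells labelled TM1 to TM11, *Angpt1* had 2457 and 2615 UMIs in the controls and 14 in *Angpt1*ΔNC. With a single *Angpt1*ΔNC pool, genotype and pool cannot be told apart, and p-values assume that this library varied as the controls did.

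The authors' 35 cluster labels were each found in all 3 libraries, and 29 of them had at least 50 cells in every library. TM1 to TM11 name trabecular meshwork and related stromal cells, which were not alike. Of 7 trabecular meshwork markers, TM4 had 7 in at least 25% of its cells and TM9 had 0, and TM10 was led by the fibroblast genes *Clec3b*, *Pi16*, *Cd34* and *Mfap5*. The pools also differed in sex makeup: cells with Y-linked UMIs and no *Xist* UMI, called male-typed, made up 1947 of 2803 and 2483 of 3324 control TM cells but 595 of 1946 *Angpt1*ΔNC TM cells. Each pair of libraries shared between 13 and 25 cell barcodes.

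Prostaglandins are short-range lipid signals made from arachidonic acid, which phospholipases release from membranes. The cyclooxygenases PTGS1 (COX-1, commonly constitutive) and PTGS2 (COX-2, inducible) convert it to an unstable endoperoxide, which the terminal synthases turn into prostaglandin D (PTGDS), prostaglandin E (PTGES) or prostacyclin (PTGIS). Prostaglandin E acts on the EP receptors encoded by the *Ptger* genes, and prostaglandin F acts on the FP receptor encoded by *Ptgfr*, the target of eye drops that lower intraocular pressure.

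Promoters of 4 synthesis genes are shown because *Ptgs2* and *Ptges* followed each other over the labels while *Ptgs1* and *Ptgds* did not follow them. Each runs 5′ to 3′ on the gene's strand from 250 bases before to 50 bases after the start given by RefSeq (GRCm38.p6), and capitals mark motif matches. The windows lie at chr2:36230176-36230475 on the + strand for *Ptgs1*, chr1:150099781-150100080 on the + strand for *Ptgs2*, chr2:25469700-25469999 on the - strand for *Ptgds* and chr2:30903248-30903547 on the - strand for *Ptges*.
Ptgs1: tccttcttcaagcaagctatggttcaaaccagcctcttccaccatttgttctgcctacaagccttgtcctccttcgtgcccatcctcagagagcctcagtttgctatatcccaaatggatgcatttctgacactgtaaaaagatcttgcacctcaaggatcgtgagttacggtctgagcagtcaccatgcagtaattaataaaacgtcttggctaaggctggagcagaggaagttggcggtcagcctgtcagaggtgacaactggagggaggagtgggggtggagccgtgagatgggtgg
Ptgs2: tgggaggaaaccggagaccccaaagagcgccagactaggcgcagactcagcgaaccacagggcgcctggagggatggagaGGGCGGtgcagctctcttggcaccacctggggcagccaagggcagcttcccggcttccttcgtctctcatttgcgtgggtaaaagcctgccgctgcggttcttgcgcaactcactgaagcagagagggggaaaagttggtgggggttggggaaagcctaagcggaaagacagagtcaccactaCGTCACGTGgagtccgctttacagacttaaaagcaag
Ptgds: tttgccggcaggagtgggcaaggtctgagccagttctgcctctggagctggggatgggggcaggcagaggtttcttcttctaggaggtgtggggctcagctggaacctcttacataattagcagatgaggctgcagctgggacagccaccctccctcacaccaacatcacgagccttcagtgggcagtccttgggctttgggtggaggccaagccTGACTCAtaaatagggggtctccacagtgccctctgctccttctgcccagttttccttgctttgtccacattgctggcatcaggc
Ptges: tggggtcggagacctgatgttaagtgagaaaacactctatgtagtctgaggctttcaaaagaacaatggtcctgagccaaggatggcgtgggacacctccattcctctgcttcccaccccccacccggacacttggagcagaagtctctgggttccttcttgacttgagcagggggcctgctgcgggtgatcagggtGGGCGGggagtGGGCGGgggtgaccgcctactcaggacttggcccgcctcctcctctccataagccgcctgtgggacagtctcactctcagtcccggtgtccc
The motifs searched on both strands were the TATA box (TATAAA) and the E-box (CACGTG), the CCAAT box, the core of a cAMP response element (CGTCA), the AP-1 site (TGANTCA), the GC box (GGGCGG) and an NF-κB-like site. In the *Ptgs2* window CGTCA and CACGTG overlapped just after the start, and a GC box lay upstream. CGTCA was present in 20.8% of 32851 promoters of the same length and CACGTG in 7.15%. The *Ptgds* window held an AP-1 motif just upstream of its start, which 7.81% of promoters hold. The *Ptges* window held a pair of GC boxes, which 35.7% of promoters hold at least once, and the *Ptgs1* window held none of the motifs. Promoters were matched for 8 of the 10 genes.

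In GRCm38 (GENCODE M21 annotation) the genes lie, with strand, as follows: *Ptgs1* at chr2:36230426-36252272 (+), *Ptgs2* at chr1:150100031-150108227 (+), *Ptgds* at chr2:25466709-25470046 (-), *Ptges* at chr2:30889471-30929863 (-), *Ptgis* at chr2:167191805-167240604 (-), *Ptgfr* at chr3:151796502-151837630 (-), *Ptger1* at chr8:83666678-83672753 (+), *Ptger2* at chr14:44988195-45003820 (+), *Ptger3* at chr3:157566892-157645888 (+) and *Ptger4* at chr15:5206661-5244187 (-). UMIs were assigned to whole genes, and 7 of the 10 genes overlap other annotated genes (*Ttc33* in the case of *Ptger4*), all but *Ptgs2*, *Ptgds* and *Ptger3*. The strand setting of the counting is not given in the sources used here, so that a part of the UMIs of those 7 genes is uncertain.

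**Figure D1:**
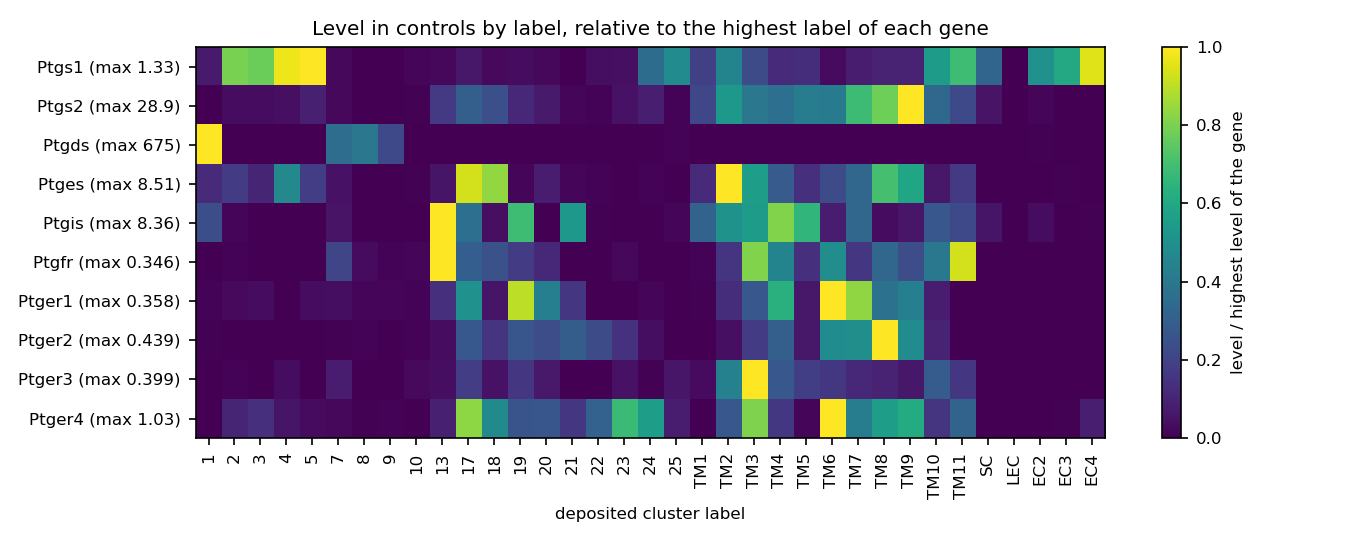
Level of each of the 10 genes (rows) in each cluster label (columns), as the mean of the control libraries, coloured relative to the highest value of that gene. *Ptgs1* is brightest in the surface epithelium and some endothelial and TM labels, *Ptgs2* and *Ptges* in TM labels and clusters 17 and 18, and *Ptgds* in clusters 1, 7, 8 and 9.

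The cyclooxygenases differed in their leading labels. A level is the number of UMIs of a gene per 10,000 UMIs of a cell, averaged over cells. *Ptgs1* was highest in corneal epithelial cluster 5, at 1.59, 1.07 and 1.58. Limbal epithelial cluster 4 (1.65, 0.935 and 1.22) and the blood endothelial label EC4 (1.62, 0.905 and 1.21) followed, and these labels differed by less than the controls did, so their order is not resolved. The limbal and corneal epithelium held 66.2%, 57.2% and 51.7% of all *Ptgs1* UMIs. A *Ptgs1* UMI was seen in 84.7%, 76.8% and 88.1% of cells in cluster 5, against 1.12%, 2.26% and 0.952% in the B and T cells of cluster 22, taken as the background. Median depth also differed, at 18747 to 21528 UMIs in cluster 5 and 2267 to 2531 in cluster 22, and with cells thinned to 2000 UMIs the shares were 28.8%, 19.5% and 26.02% against 1.59%, 0% and 0%.

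*Ptgs2* was highest in the stroma. TM9 had 21.4, 36.4 and 24.8, with a *Ptgs2* UMI in 88.2%, 95.6% and 96.02% of cells. TM8 followed at 18.2, 26.8 and 24.4, then TM7 at 16.4, 23.3 and 17.2 and TM2 at 13.4, 17.5 and 14.8. Both controls gave this order, although the ranges of neighbouring labels overlapped. In the B and T cells of cluster 22, a background that itself differed between the genotypes, *Ptgs2* was at 0.154, 0.506 and 1.15, in 2.25%, 5.26% and 10.5% of cells. TM labels held 70.1%, 77.1% and 60.1% of all *Ptgs2* UMIs. Control replicate 2 was above control replicate 1 in 9 of 10 TM labels, whereas 42.1% of gene and label pairs went that way over all genes. Cells of TM9 were spread widely, with 10th, 50th and 90th percentiles of 0, 14.2 and 50.2 in control replicate 1 and 3.30, 26.6 and 81.9 in control replicate 2.

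*Ptges*, the inducible terminal synthase of prostaglandin E, followed *Ptgs2* over the labels. Its levels were 8.42, 8.597 and 6.901 in TM2, 7.34, 8.51 and 13.1 in cluster 17 and 5.38, 8.87 and 9.61 in cluster 18. Clusters 17 and 18 matched no marker list, and *Ptges* was among the 10 leading genes of cluster 17. Limbal cluster 4 had *Ptges* at 3.74, 4.24 and 4.17 where *Ptgs2* was lower than in the TM labels (1.405, 0.938 and 0.498). The level of *Ptges* in the B and T cells of cluster 22 was 0.0392, 0.114 and 0.149. Over the 35 labels the control means of *Ptgs2* and *Ptges*, as log2(level + 0.1), had a Pearson correlation of 0.76, against 0.05 for *Ptgs1* and *Ptgs2*. This was not particular to the pair, as *Ptgs2* had 0.60 to 0.67 with *Ptgis* and each receptor gene, and 0.867 with *Tpbg*. The points share libraries and differ in depth. Within TM8, *Ptges* was seen in 70.5%, 76.6% and 88.8% of cells with a *Ptgs2* UMI and in 51.0%, 59.6% and 66.7% of the others, whose median depth was lower (3475, 3479 and 3418 UMIs against 4057, 4360 and 4974). The gap varied with the label. TM9 had 71.7%, 78.6% and 92.4% against 50%, 61.5% and 61.5%. It was narrower in TM2 (92.0%, 93.0% and 87.2% against 91.9%, 84.8% and 83.8%) and in cluster 18 (71.1%, 81.6% and 85.6% against 71.1%, 77.4% and 76.5%).

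*Ptgis*, which makes prostacyclin, was highest in cluster 13, led by matrix genes such as *Kera*, *Thbs4* and *Comp*, at 6.67, 10.1 and 9.26. TM4 had 6.15, 7.41 and 6.78, smooth muscle cluster 19 had 5.601, 5.92 and 5.702 and TM5 had 5.19, 5.795 and 6.98. The pericytes of cluster 20 had 0.0271, 0.0236 and 0.0909. In TM4 94.8%, 97.6% and 97.1% of cells had a *Ptgis* UMI, against 0.506%, 1.58% and 1.43% in the limbal and corneal epithelium, the background for this gene.

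*Ptgds*, the lipocalin-type prostaglandin D synthase, was concentrated in pigment-cell clusters and cluster 7. Retinal pigment epithelium (cluster 1) had 686, 664 and 428, the last from 17 cells. Melanocyte cluster 8 had 249, 284 and 142, cluster 7 had 258, 226 and 327 and cluster 9, with melanocyte and glial markers, had 136, 160 and 120. Clusters 1, 7, 8 and 9 held 98.6% of all *Ptgds* UMIs. Elsewhere the highest value in a library was 6.93, in macrophage cluster 25, and the limbal and corneal epithelium had 0.723, 0.677 and 0.4004. The genes most like *Ptgds* over the 35 labels were the pigment-cell genes *Tspan10*, *Dct* and *Trpm1*, with correlations of 0.975, 0.956 and 0.949.

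**Figure D2:**
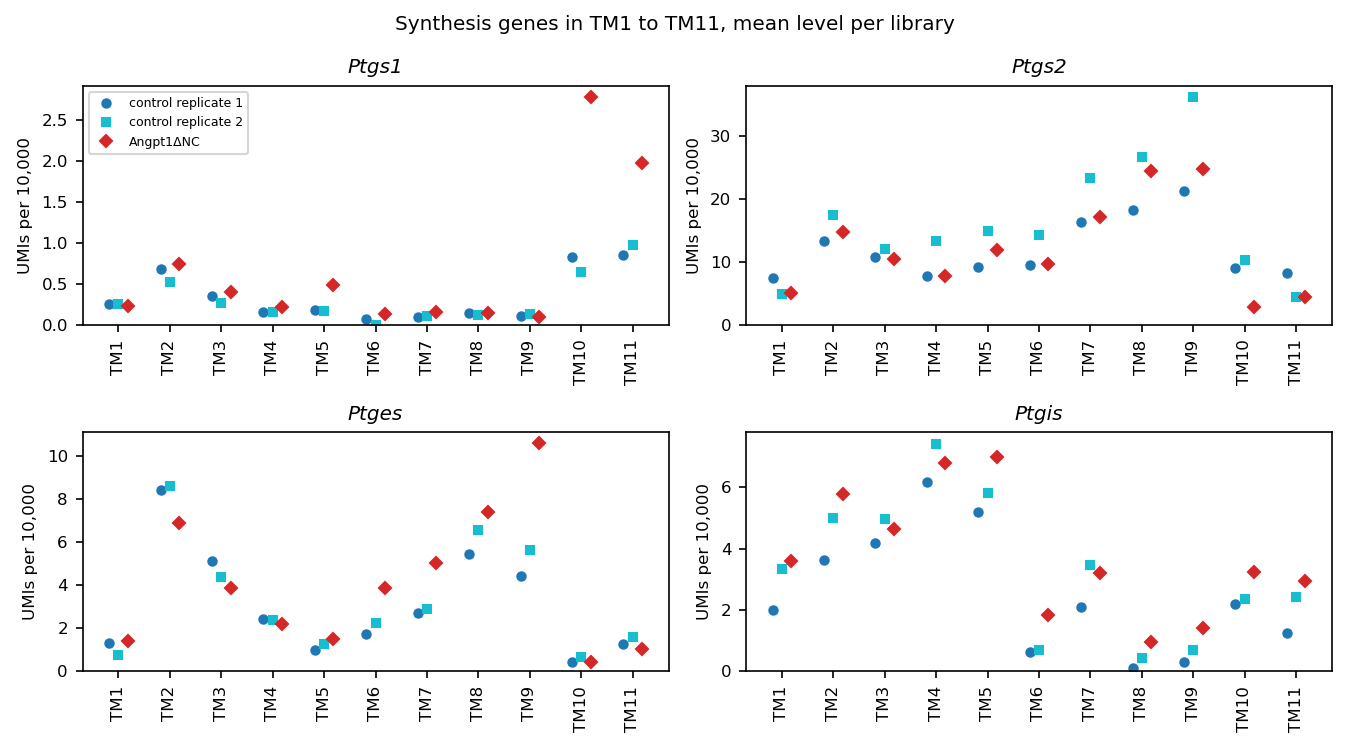
Levels of *Ptgs1*, *Ptgs2*, *Ptges* and *Ptgis* (UMIs per 10,000, averaged over cells) in TM1 to TM11, with 1 point per library. In TM10 the *Angpt1*ΔNC point of *Ptgs1* lies above and that of *Ptgs2* below both control points, and in TM9 those of *Ptges* and *Ptgis* lie above.

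Receptor transcripts were sparse, and their leading labels differed. *Ptger4*, which encodes the EP4 receptor, had 1.03, 1.03 and 0.589 in TM6, 0.859, 0.855 and 0.643 in cluster 17 and 0.824, 0.842 and 0.162 in TM3. The controls lay close together in these labels but apart in cluster 23 (1.12, 0.283 and 0.488). *Ptger4* UMIs were seen in 31.2%, 31.9% and 22% of TM6 cells, against 7.48%, 4.55% and 6.48% of limbal and corneal epithelial cells.

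*Ptger1*, which encodes EP1, had 0.519, 0.197 and 0.0683 in TM6, 0.333, 0.313 and 0.0511 in smooth muscle cluster 19 and 0.318, 0.281 and 0.2196 in TM7. It was seen in 1.52%, 2.08% and 1.54% of epithelial cells. *Ptger2*, which encodes EP2, was highest in TM8, at 0.508, 0.369 and 0.199, and had 1, 1 and 0 UMIs in the epithelium.

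*Ptger3*, which encodes EP3, was highest in TM3, at 0.3596, 0.439 and 0.158, where 21.1%, 25.96% and 9.52% of cells had a UMI against 1.01%, 0.791% and 1.65% in the epithelium. *Ptgfr* had 0.203, 0.489 and 0.528 in cluster 13 and 0.283, 0.276 and 0.124 in TM3, and these labels overlapped. No *Ptgfr* UMI was seen in 989, 1012 and 911 epithelial cells, which allows shares of cells with a UMI of up to 0.303%, 0.296% and 0.329%.

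Over the 35 labels *Ptger1* and *Ptger2* had a correlation of 0.81, *Ptger2* and *Ptger4* 0.73, and *Ptgfr* and *Ptger3* 0.68. Among the 5247 or 5248 genes compared, the most alike were *Smoc1* and *Angpt1* for *Ptger1* (0.856 and 0.854), *Edn3* for *Ptger2* (0.833), *Pcsk5* for *Ptger3* (0.799), *Tnfsf9* for *Ptger4* (0.777) and *Igsf10* for *Ptgfr* (0.860). For the enzymes they were *Ifi202b* for *Ptgs1* (0.803), *Tpbg* for *Ptgs2* (0.867), *Rerg* for *Ptges* (0.860) and *Ogn* for *Ptgis* (0.875).

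**Figure D3:**
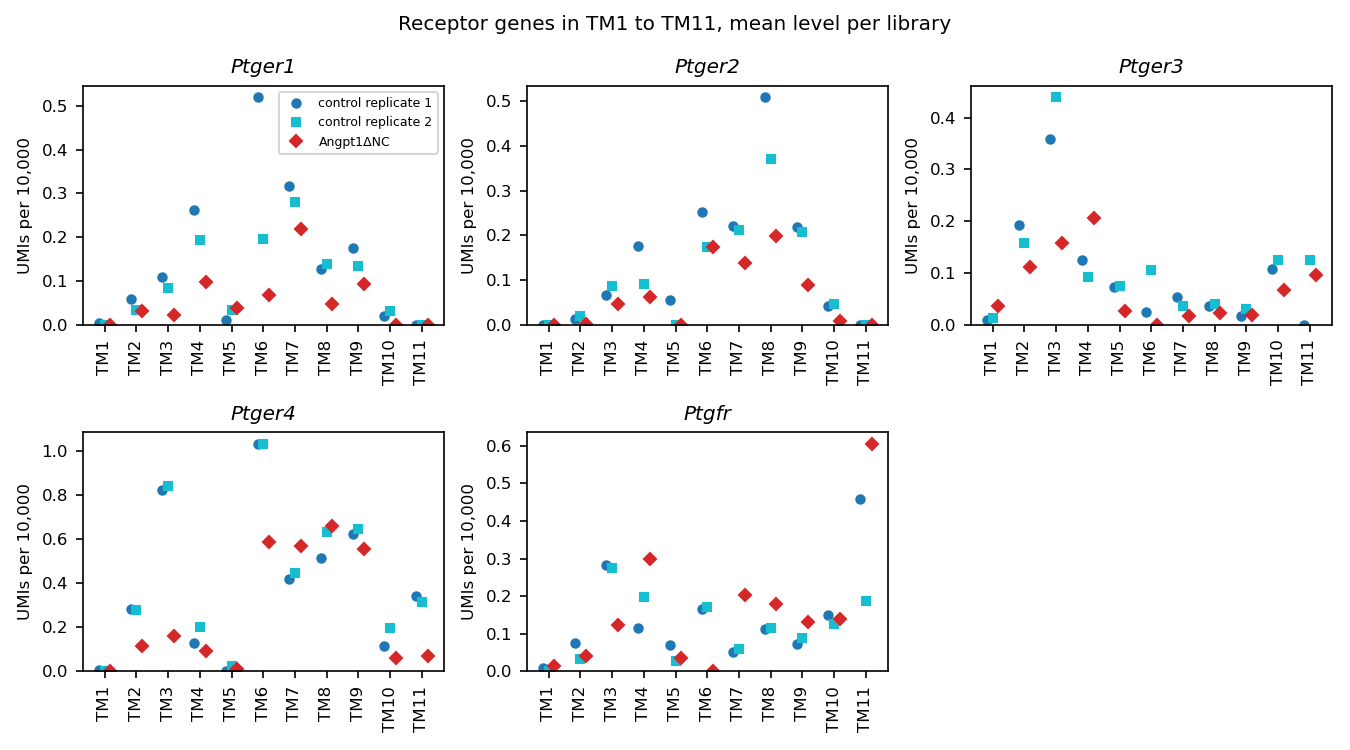
Levels of *Ptger1* to *Ptger4* and *Ptgfr* (UMIs per 10,000, averaged over cells) in TM1 to TM11, with 1 point per library. In TM3 the *Angpt1*ΔNC points of *Ptger4*, *Ptger3* and *Ptgfr* lie below both control points.

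The comparison of genotypes asked whether prostaglandin genes differed where neural crest cells lacked *Angpt1*. UMIs were summed per library over a class of cells and tested with edgeR, and a gene is called at a Benjamini-Hochberg adjusted p under 0.05 over all genes tested. In TM1 to TM11, 5 of 10 members were called, against 8.97% of 13942 genes, of which 1 was higher in *Angpt1*ΔNC (3.46% of genes) and 4 were lower (5.52% of genes), and the median change of the members was -0.29 on the log2 scale against -0.01 over all genes. *Ptgs1* was the higher one, with levels of 0.265, 0.239 and 0.594, and rose by 1.200 ± 0.13 (SE, edgeR adjusted p = 0.00136).

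Of the receptors, *Ptger2* had 0.214, 0.1604 and 0.06195 and fell by 1.47 ± 0.22 (edgeR adjusted p = 0.00488). *Ptger1* had 0.179, 0.1398 and 0.0659 and fell by 1.26 ± 0.21 (edgeR adjusted p = 0.00954). *Ptger4* had 0.406, 0.451 and 0.266 and fell by 0.68 ± 0.17 (edgeR adjusted p = 0.0446). In each the *Angpt1*ΔNC level lay below both controls. The makeup of the class moved with these values: TM7 had 667, 739 and 174 cells and TM8, where *Ptger2* was highest, had 591, 612 and 155. With equal cells per label *Ptger1* was at -0.895 (edgeR adjusted p = 0.0451), *Ptger2* at -0.83 (edgeR adjusted p = 0.0664), *Ptger4* at -0.32 (edgeR adjusted p = 0.307) and *Ptgs1* at 0.94 (edgeR adjusted p = 0.00518). The call of *Ptger4* was also lost with DESeq2 (DESeq2 adjusted p = 0.169). *Ptger1* lay below both controls in 8 of the 8 labels where its control level was at least 0.1, against 45.9% of gene and label pairs.

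*Ptgs2*, *Ptges*, *Ptgis*, *Ptgfr* and *Ptger3* were not called in the TM class. For *Ptgs2* (14.03, 20.1 and 13.8) the controls differed by more than the genotypes, at -0.25 ± 0.23. *Ptges* (3.88, 4.47 and 4.91) was at 0.19 ± 0.16, *Ptgis* (2.27, 3.33 and 4.04) at 0.41 ± 0.21, *Ptgfr* (0.104, 0.105 and 0.149) at 0.498 ± 0.18 and *Ptger3* (0.0908, 0.103 and 0.0813) at -0.33 ± 0.21. A value that misses the threshold does not show equal levels.

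**Figure D4:**
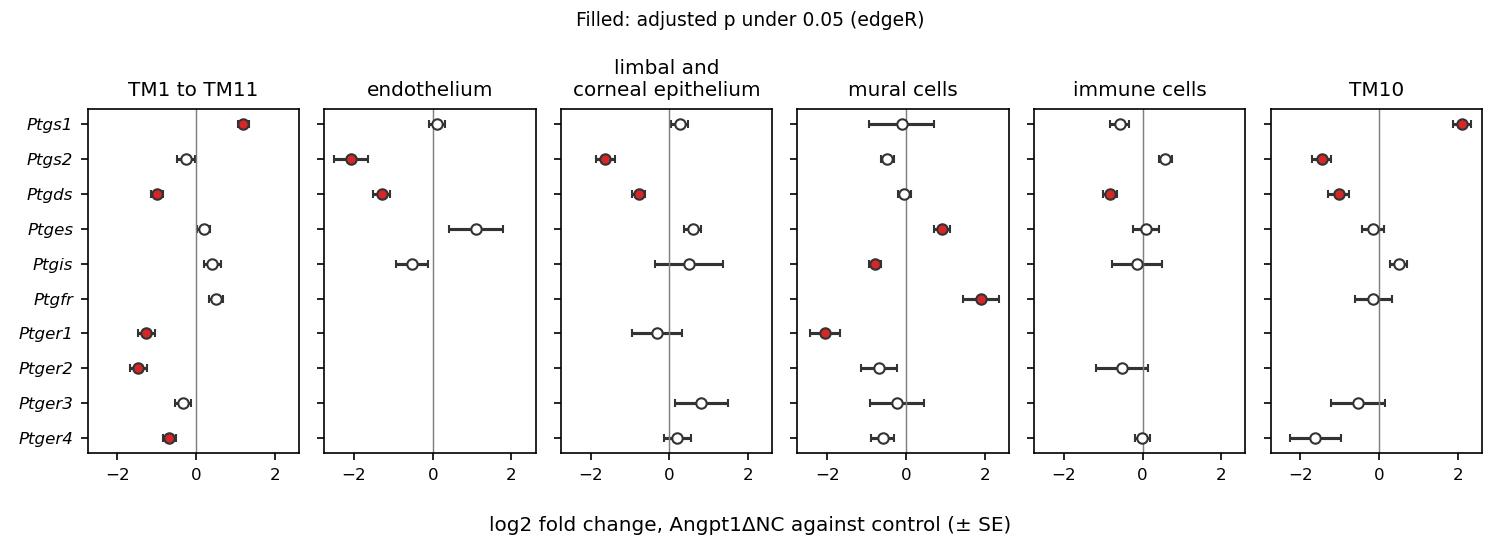
Log2 fold change of *Angpt1*ΔNC over control with its SE for each member in 5 classes and in TM10, with filled red points where the edgeR adjusted p is under 0.05. In TM10 *Ptgs1* lies at 2.11 and *Ptgs2* at -1.46.

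In TM10 the cyclooxygenases changed in opposite directions. *Ptgs1* had 0.822, 0.643 and 2.77, from 102, 66 and 456 UMIs in 194, 167 and 188 cells, with a UMI in 26.3%, 23.95% and 69.7% of cells. *Ptgs2* had 9.08, 10.4 and 2.81, with a UMI in 59.8%, 65.3% and 32.98% of cells. The exact (Clopper-Pearson) 95% intervals of these shares, which cover counting error only, were 20.2 to 33.1%, 17.7 to 31.2% and 62.6 to 76.2% for *Ptgs1* and 52.5 to 66.8%, 57.5 to 72.5% and 26.3 to 40.2% for *Ptgs2*. The *Angpt1*ΔNC library lay outside both controls for each gene, *Ptgs1* above and *Ptgs2* below. The change was 2.11 ± 0.22 for *Ptgs1* (edgeR adjusted p = 4.48e-16) and -1.46 ± 0.24 for *Ptgs2* (edgeR adjusted p = 4.78e-07), in a label where 11.6% of genes were called. Median depth was 6622, 6645 and 8135 UMIs, and with cells thinned to 2000 UMIs the shares were 15.7%, 10.2% and 36.2% for *Ptgs1* and 46.1%, 48.4% and 21.6% for *Ptgs2*. Both calls remained under each of 5 alternatives, at 2.02 to 2.44 and -1.53 to -1.43.

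Other inducible genes were also lower in TM10, where 495 of 8527 genes were called lower. Of 17 immediate early genes 9 were called lower and 0 higher, and their summed level was 164, 171 and 115. Of 8 inducible inflammatory genes 6 were called lower, with a summed level of 88.9, 97.6 and 39.2. Such calls were also seen in labels where *Ptgs2* was not called. In TM9 8 of 17 immediate early genes were called lower, against 681 of 8595 genes. In TM4 6 of 8 inflammatory genes were called lower, against 382 of 10430 genes. The part of these lists in the *Ptgs2* result was not tested. TM10 and the other labels fitted alone were chosen after their values were seen. The change in TM10 differed from that in the other TM labels summed, in a test of the difference with the library as a block, for both *Ptgs1* (1.499 ± 0.23, edgeR adjusted p = 4.60e-06) and *Ptgs2* (-1.33 ± 0.15, edgeR adjusted p = 3.37e-09). In that test 4.64% of genes were called for TM10, 6.05% for TM9 and 1.7% for TM3.

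In TM9 the synthases *Ptges* and *Ptgis* were called higher and *Ptgds* lower. *Ptges* had 4.41, 5.64 and 10.6, with a UMI in 69.1%, 77.9% and 91.1% of cells, and rose by 1.14 ± 0.195 (edgeR adjusted p = 2.39e-07). *Ptgis* had 0.311, 0.705 and 1.4 and rose by 1.45 ± 0.23 (edgeR adjusted p = 1.09e-08), though its controls also lay apart. *Ptgds* had 1.46, 1.09 and 0.653 and fell by 0.77 ± 0.24 (edgeR adjusted p = 0.0121), a call that remained in 3 of 5 alternatives. *Ptgs2* was at -0.01 ± 0.17, and 15.1% of genes were called in TM9. *Pla2g4a*, a phospholipase that releases arachidonic acid, had 0.5103, 0.836 and 1.25 and rose by 1.02 ± 0.22 (edgeR adjusted p = 0.000156). *Ptgir*, the prostacyclin receptor, had 1.04, 1.19 and 1.95 and rose by 0.94 ± 0.22 (edgeR adjusted p = 0.000317). In male-typed cells *Ptges* was at 0.78 (edgeR adjusted p = 0.09195), and with DESeq2 *Ptgis* was not called (DESeq2 adjusted p = 0.749). The inducible inflammatory list had a summed level of 152, 155 and 229 in TM9, of which *Ccl2* made up 70.1, 61.5 and 141. Of its 8 genes 3 were called higher and 1 lower. The immediate early list had 129, 126 and 94.1 there, with 1 of 17 genes called higher and 8 lower. The part of these lists was not tested.

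In TM3 receptors were lower. *Ptger4* had 0.824, 0.842 and 0.162, from 108, 175 and 16 UMIs in 185, 285 and 126 cells, and fell by 2.26 ± 0.33 (edgeR adjusted p = 9.14e-10). *Ptger3* had 53, 100 and 16 UMIs and fell by 1.36 ± 0.38 (edgeR adjusted p = 0.00767). *Ptgfr* had 36, 54 and 9 UMIs and fell by 1.44 ± 0.46 (edgeR adjusted p = 0.0322). In TM3 7.03% of genes were called. None of these 3 calls remained in male-typed cells, of which TM3 had 144, 223 and only 29. There *Ptger4* was at -1.07 (edgeR adjusted p = 0.223), *Ptger3* at -0.51 (edgeR adjusted p = 0.743) and *Ptgfr* at -1.51 (edgeR adjusted p = 0.418). *Ptger3* was not called with DESeq2 either (DESeq2 adjusted p = 0.639). In TM2, where 1.39% of genes were called, *Ptger4* was lower at 0.283, 0.2803 and 0.117 (-1.56 ± 0.29, edgeR adjusted p = 0.036), a call that remained in 1 of 5 alternatives.

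Over the 29 labels and all genes, 5.05% of gene and label pairs were called, 2.54% higher and 2.52% lower. *Ptgs1* was called in 2 of 18 labels tested, higher in TM10 and in TM5 (0.177, 0.17 and 0.486, 2.48% of genes called). *Ptges* was called in 2 of 26 labels, higher in TM9 and in TM7 (2.7004, 2.91 and 5.02, 5.07% of genes called), where *Ptgfr* was also called higher (17, 27 and 25 UMIs). *Ptger1* was called in 1 of 11 labels, lower in TM4 (0.262, 0.194 and 0.0987, 6.52% of genes called), and *Ptger2* in 0 of 9. Each of these calls outside TM9 and TM10 was lost under at least 1 alternative. *Ptgs2* was called in 7 of 27 labels, higher in clusters 18, 22 and 24 and lower in clusters 4, 13 and 20 and in TM10. In cluster 18 (4.49, 9.63 and 12.1, with 3.22% of genes called) the controls differed from each other by more than *Angpt1*ΔNC did from control replicate 2. This call remained in 2 of 5 alternatives, being lost with DESeq2, with equal cells per label (edgeR adjusted p = 0.356) and in male-typed cells (edgeR adjusted p = 0.312), and the change was 0.51 without control replicate 1 and 1.699 without control replicate 2. In B and T cell cluster 22 *Ptgs2* was at 1.64 ± 0.32 (edgeR adjusted p = 2.22e-05, 4.03% of genes called), from 9, 51 and 94 UMIs, a call that remained in 3 of 5 alternatives and was lost with DESeq2 and in male-typed cells (edgeR adjusted p = 0.0515). Without control replicate 2 it was at 2.73. The call in cluster 13 (3.77, 6.09 and 2.46) remained in 1 of 5 alternatives. TM6, the leading label of *Ptger1* and *Ptger4*, had 50 *Angpt1*ΔNC cells, and there edgeR called 0 of 5200 genes (0%), with 729 at an unadjusted p under 0.05, while DESeq2 called 53. In the leading label of each member, 2 of 10 members were called, both lower: *Ptgds* in cluster 8 (8.74% of genes called) and *Ptger3* in TM3 (7.03%). These labels were chosen by their highest control level, and such a choice favours lower values in *Angpt1*ΔNC.

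In the limbal and corneal epithelium *Ptgs2* was lower in *Angpt1*ΔNC, and 2 of 8 members tested were called, against 5.72% of genes. It had 2.36, 1.505 and 0.596 and fell by 1.62 ± 0.24 (edgeR adjusted p = 0.00985). Cluster 4 alone had 1.405, 0.938 and 0.498 (-1.69 ± 0.19, edgeR adjusted p = 8.89e-17, 11.9% of genes called), a call that remained in 4 of 5 alternatives and was lost without a filter on low counts (edgeR adjusted p = 0.457). Cluster 5 alone had 3.05, 2.07 and 0.829 and missed the threshold (-1.19 ± 0.23, edgeR adjusted p = 0.0537, 2.23% of genes called). *Ptgs1* in these epithelia had 1.61, 1.004 and 1.32 (0.26 ± 0.21, edgeR adjusted p = 0.497), with overlapping groups. Of the 17 immediate early genes 8 were called lower here, with a summed level of 95.5, 89.1 and 56.03, and their part in the result was not tested.

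In the endothelium 2 of 5 members tested were called, against 12.9% of genes. *Ptgs2* had 0.394, 0.287 and 0.09302 and fell by 2.08 ± 0.43 (edgeR adjusted p = 0.000734), which DESeq2 did not call (DESeq2 adjusted p = 0.0921). These were few transcripts, 123, 64 and 13 UMIs, of which 116, 35 and 8 lay in 46, 63 and 15 cells of the Schlemm's canal label SC. *Ptgs1* had 0.999, 0.751 and 0.778 in endothelium.

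In mural cells 4 of 10 members were called, against 16.4% of genes. This class joined clusters 19, 20 and 21, and the authors name cluster 19 only as smooth muscle, not as a vascular cell. *Ptger1* had 0.202, 0.208 and 0.0409 and fell by 2.06 ± 0.38 (edgeR adjusted p = 0.00141). *Ptgfr* had 16, 28 and 21 UMIs and rose by 1.91 ± 0.46 (edgeR adjusted p = 0.00809), a call lost in male-typed cells (edgeR adjusted p = 0.139). The makeup of this class also differed, with 387, 499 and 54 cells in smooth muscle cluster 19 and 461, 512 and 222 in pericyte cluster 20. *Ptgis* fell by 0.78 ± 0.15 and *Ptges* rose by 0.92 ± 0.203, but with equal cells per label these were at -0.15 (edgeR adjusted p = 0.675) and 0.24 (edgeR adjusted p = 0.628), and *Ptgis* within cluster 19 was at 5.601, 5.92 and 5.702. In cluster 21, with smooth muscle and pericyte markers, *Ptgis* was lower at 3.74, 5.16 and 1.83 (-1.34 ± 0.26, edgeR adjusted p = 2.23e-05, 8.21% of genes called). In cluster 20 *Ptgs2* was lower at 2.11, 2.003 and 0.827 (-1.38 ± 0.203, edgeR adjusted p = 0.000303, 7.67% of genes called). The last 2 calls remained in each of 5 alternatives.

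In immune cells 1 of 7 members tested was called, against 4.19% of genes, and this was *Ptgds*. *Ptgs2* had 2.05, 1.68 and 2.36 (0.58 ± 0.17, edgeR adjusted p = 0.0877) and *Ptger4* had 0.603, 0.418 and 0.409 (-0.01 ± 0.19, edgeR adjusted p = 0.988). In macrophage cluster 24 *Ptgs2* was called higher at 2.73, 2.03 and 3.23 (0.65 ± 0.17, edgeR adjusted p = 0.0499, 4.48% of genes called), a call that remained in 3 of 5 alternatives.

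*Ptgds* was lower in *Angpt1*ΔNC both in melanocyte cluster 8, where it was abundant, and in cells where it was scarce. In cluster 8 the median cell had 228, 270 and 132 and the mean fell by 0.91 ± 0.15 (edgeR adjusted p = 0.00542, 8.74% of genes called). In cluster 9, where it was also abundant, it was not called. The mean there lay below both controls (136, 160 and 120), but the median cell had 112.8, 128.2 and 113.3. In cluster 7 the *Angpt1*ΔNC level was instead above both controls (258, 226 and 327). Over the 29 labels *Ptgds* was called lower in 16, against 2.52% of gene and label pairs over all genes. It lay below both controls in 25, against 45.9% of pairs. The TM class had 1.29, 1.204 and 0.615 (-1.001 ± 0.15, edgeR adjusted p = 0.00618), the endothelium 1.89, 1.29 and 0.472 (-1.297 ± 0.22, edgeR adjusted p = 3.89e-05), the epithelium 0.723, 0.677 and 0.4004 (-0.78 ± 0.17, edgeR adjusted p = 0.03696) and immune cells 2.01, 2.096 and 1.02 (-0.83 ± 0.18, edgeR adjusted p = 0.0222). DESeq2 did not call the last 2 (DESeq2 adjusted p = 0.0635 and DESeq2 adjusted p = 0.226).

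Transcripts of the retinal pigment epithelium, which these other cells should lack, moved with *Ptgds*. The summed level of 6 such genes was 0.394, 0.349 and 0.131 in the TM class, 0.378, 0.248 and 0.0462 in endothelium, 0.339, 0.151 and 0.0386 in epithelium and 0.755, 0.697 and 0.0655 in immune cells. Cluster 1, where these genes were highest, had 133, 81 and 17 cells. The part of free RNA in the *Ptgds* results was not tested. In cluster 8, *Ttr*, a retinal pigment epithelium gene, was instead higher in *Angpt1*ΔNC (0.438, 0.476 and 1.81).

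**Figure D5:**
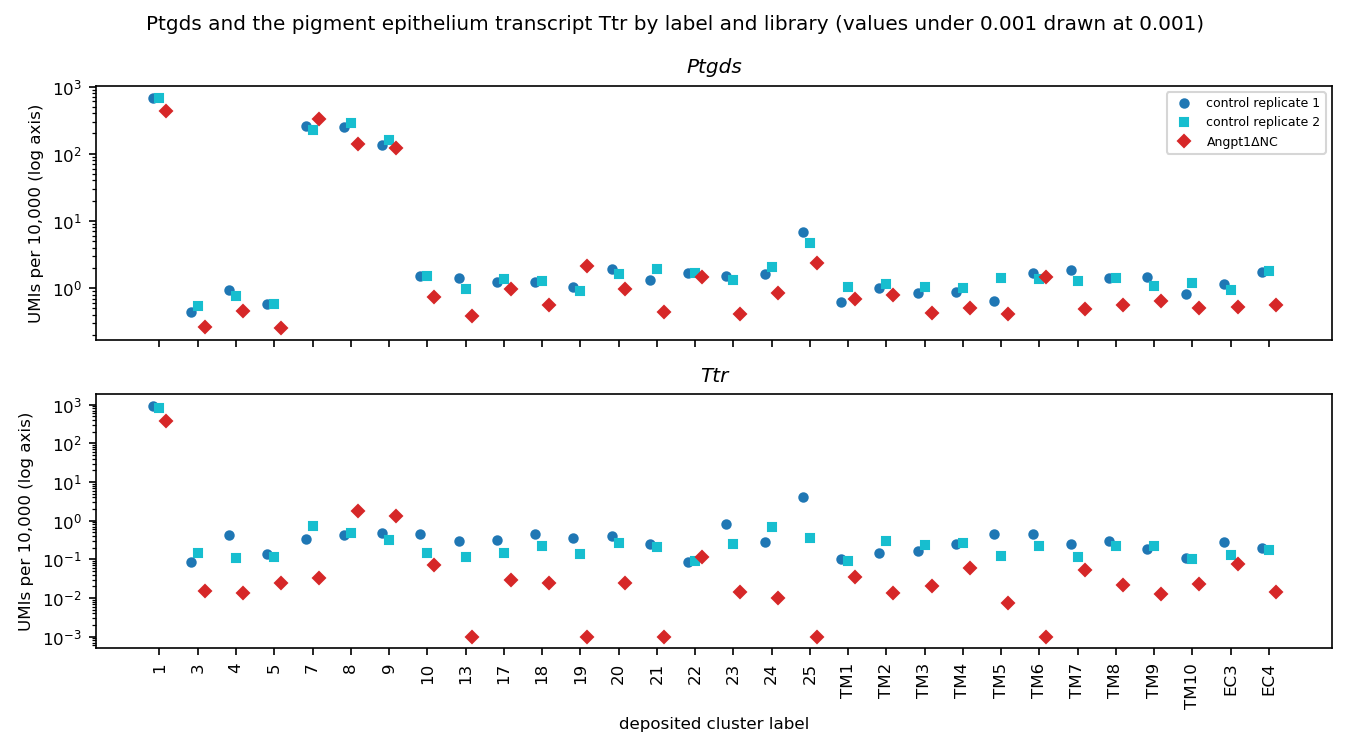
Levels of *Ptgds* and of *Ttr* by label and library on a log10 axis in UMIs per 10,000, with values under 0.001 drawn at 0.001. *Ptgds* stands at 120 or more in clusters 1, 7, 8 and 9 and at 6.93 or less elsewhere, and *Ttr* is highest in cluster 1.

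*Ptgds* was called higher in 2 labels. Smooth muscle cluster 19 had 1.05, 0.892 and 2.16, from 237, 276 and 90 UMIs, in a label where 0.966% of genes were called. In B and T cell cluster 22, where 4.03% were called, 1 cell held 78.7% of the *Angpt1*ΔNC UMIs and the levels were 1.67, 1.65 and 1.48. Both turned negative in male-typed cells, at -1.06 and -0.40, but these fits held only 2 and 27 *Angpt1*ΔNC cells.

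Of 28 other genes of the pathway, 23 were tested in the TM class, and 2 were called higher and 0 lower, or 2 of 23 against 8.97% of all genes. *Slco2a1*, a prostaglandin transporter, had 0.149, 0.175 and 0.279 and rose by 0.75 ± 0.18 (edgeR adjusted p = 0.0395). *Akr1c18*, an aldo-keto reductase that inactivates progesterone and can make prostaglandin F, had 1, 0 and 51 UMIs in TM10, the last in 18 of 188 cells. Its highest level was in conjunctival epithelial cluster 3, at 0.506, 1.28 and 0.3903.

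In endothelium 1 was called higher and 1 lower of 13 tested, against 12.9% of all genes. *Ptgfrn*, an inhibitor of the FP receptor, rose by 1.99 ± 0.46 and *Tbxa2r*, the thromboxane receptor, fell by 2.14 ± 0.45, with 0.3103, 0.488 and 0.0631 in EC3. In epithelium 2 of 18 were called, against 5.72% of all genes, both lower: *Ptgr1*, which inactivates prostaglandins and leukotriene B, fell by 1.08 ± 0.16 and *Hpgds*, the hematopoietic prostaglandin D synthase, by 1.02 ± 0.22. In mural cells *Ptgir* rose by 0.92 ± 0.15, *Ptges3* rose by 0.43 ± 0.14 and *Pla2g4a* fell by 0.91 ± 0.23, 3 of 18 tested against 16.4% of all genes. In immune cells *Hpgds* fell by 0.67 ± 0.17, the 1 call among 18 tested, against 4.19% of all genes.

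*Hpgds* was also lower in cluster 8 (1.34, 1.43 and 0.621) and in cluster 9 (0.9796, 0.814 and 0.386, 12.2% of genes called), which have high *Ptgds*. By level, the phospholipases were led by *Pla2g5* in cluster 1 (4.0999, 3.06 and 1.95) and *Pla2g4a* in TM2 (2.33, 2.22 and 2.095). The other synthases were led by *Ptges3*, a co-chaperone, in cluster 2 (3.68, 3.83 and 3.53) and *Fam213b* in cluster 8 (3.16, 3.53 and 2.34). *Ptgir* led the other receptors, in cluster 21 (5.48, 4.64 and 4.38). The breakdown enzyme *Hpgd* was highest in cluster 25 (5.12, 3.09 and 4.47) and *Slco2a1* in SC (2.81, 2.49 and 4.06). The prostaglandin D receptors *Ptgdr* and *Ptgdr2* had 23 and 3 UMIs in all kept cells, too few to show a difference at this depth.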

How the data were processed

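The study sequenced dissociated angle tissue from 2 control pools and 1 *Angpt1*ΔNC pool. The authors deposited raw UMI counts per gene and cell (Cell Ranger 2.1.1 and build mm10 per the processing notes, although the matrix header names 3.0.2) and a table of cluster labels for the cells they kept after Seurat 3.1.3 integration, with filters of 200 genes, 1000 UMIs and 10% mitochondrial UMIs. Deposited counts were used as they stood. The authors had also removed predicted doublets with scDblFinder before labelling, and no further doublet calling was done here.

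The members, the other gene lists and the labels fitted alone were chosen with earlier results of these data known. A level averages a gene's UMIs per 10,000 in each cell. Counts summed per library were tested with edgeR 4.0.16 (TMM, filterByExpr, quasi-likelihood F-test, 1 residual degree of freedom) by scripts tested on simulated data. P-values measure only the spread between pooled libraries, and with 1 residual degree of freedom edgeR estimates this spread by drawing on all genes together. A small p-value can therefore stand beside controls that lie apart, as for *Ptgis* in TM9. The limit for a share of 0 (3 cells) covers counting error only. Alternatives were DESeq2 1.42.0, RLE factors, no filter, equal cells per label, male-typed cells and leaving out a control; fits of single labels and of differences between labels were added after the data were seen. Named genes are the members, pathway genes called in a class or highest in their subgroup, and the genes most correlated with a member.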

Additional observations from a re-analysis of the deposited data

Results flagged for a closer look

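For 9 pairs of gene and label, the change with genotype in 1 TM label differed from that in the other TM labels summed, in an edgeR test of the difference itself with the library as a block and an adjusted p under 0.05 over all genes. TM3, TM9 and TM10 were chosen for this test after their values were seen, and all 10 members were tested in each. Over all genes, 1.7% were called for TM3, 6.05% for TM9 and 4.64% for TM10. Values are differences of log2 fold changes with their SE, positive where the label moved more toward higher levels in *Angpt1*ΔNC.

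For TM3, *Ptger4* differed by -1.79 ± 0.32 (edgeR adjusted p = 0.00298) and *Ptgfr* by -2.23 ± 0.46 (edgeR adjusted p = 0.00921). For TM9, *Ptges* differed by 1.29 ± 0.14 (edgeR adjusted p = 7.39e-17), *Ptgis* by 1.04 ± 0.19 (edgeR adjusted p = 4.84e-06) and *Ptgs1* by -2.103 ± 0.45 (edgeR adjusted p = 0.000155). *Ptger4* also differed in TM9 by 1.12 ± 0.26 and *Ptgs2* by 0.45 ± 0.13, but with equal cells per label these were at 0.53 (edgeR adjusted p = 0.498) and 0.195 (edgeR adjusted p = 0.648). For TM10, *Ptgs1* differed by 1.499 ± 0.23 and *Ptgs2* by -1.33 ± 0.15. The other 7 differences remained called with equal cells per label. *Ptgs1* was not called in TM9 itself, and the labels summed against TM9 included TM10, where *Ptgs1* rose. Among the other pathway genes *Pla2g4a* (0.96), *Ptgir* (0.98) and *Slco2a1* (1.96) differed for TM9, and *Hpgd* (1.49) for TM10. With equal cells per label *Pla2g4a* was at 0.699 (edgeR adjusted p = 0.0587) and *Slco2a1* at 2.05 (edgeR adjusted p = 0.06796), and neither was called.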

How the results depend on the processing

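No paired analysis was possible because there was a single *Angpt1*ΔNC pool and the sample labels give no pairing of libraries. The numbers of genes called moved with the setting. TM1 to TM11 had 1251 calls, with 636 by DESeq2, 2441 without a filter and 806 with equal cells per label. Endothelium had 1250 calls, with 257 by DESeq2. Limbal and corneal epithelium had 706 calls, with 431 by DESeq2, 1814 without a filter and 465 in male-typed cells. Mural cells had 1898 calls (1059 higher and 839 lower), with 564 by DESeq2 (374 higher and 190 lower) and 923 with equal cells per label. Immune cells had 436 calls, with 86 by DESeq2, 33 with RLE factors and 886 without a filter. In the leading label of each member 2 members were called, with 1 by DESeq2 and 1 in male-typed cells.

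Of 53 calls of members in classes and single labels, 15 remained in every alternative that gave a value. RLE factors kept 50, no filter 49, male-typed cells 36, equal cells per label 34, and DESeq2 21 of the 48 it gave. *Ptgds* turned from higher to lower in male-typed cells of cluster 19 (-1.06, from 2 *Angpt1*ΔNC cells) and cluster 22 (-0.40, from 27). With either control left out, which leaves no test, *Ptgs1* ranged from 1.10 to 1.29 in the TM class and from 1.87 to 2.28 in TM10, and *Ptgs2* from -1.65 to -1.32 in TM10 and from -2.71 to -1.51 in endothelium. The causes were not tested. Receptors with under 100 UMIs in a label limit what this depth can show.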

Other observations

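Cluster 18, outside the TM labels, also differed in pathway genes, in a label where 3.22% of genes were called. *Pla2g4a* had 0.198, 0.298 and 0.6604, from 33, 26 and 277 UMIs (1.56 ± 0.32 on the log2 scale, edgeR adjusted p = 0.00174), and *Slco2a1* had 0.0622, 0.108 and 0.274 (2.02 ± 0.41, edgeR adjusted p = 0.00168). *Hpgd*, which starts the breakdown of prostaglandins, was lower there at 0.211, 0.241 and 0.0545 (-1.87 ± 0.47, edgeR adjusted p = 0.0152) and in TM4 at 0.456, 0.354 and 0.185 (-1.15 ± 0.25, edgeR adjusted p = 0.0112).

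*Ptgis* in melanocyte cluster 8 had 9, 8 and 44 UMIs in 839, 767 and 442 cells, in 0.954%, 0.913% and 7.01% of cells (3.02 ± 0.43, edgeR adjusted p = 0.00272), and this call remained in each of 5 alternatives. Its levels there, 0.00975, 0.00964 and 0.0759, were far under those in TM4.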
